A study of Mus musculus with 4 samples.

Results

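The 85 protein-coding genes for cytosolic ribosomal proteins gave 5946 of the 4906138 distinct small RNA sequences listed for MILI in mouse testis. The genes were chosen by symbol from 21951 protein-coding genes with transcripts in GENCODE M21: Rpl or Rps and a number, or Rplp0, Rplp1, Rplp2 or Rpsa. Kinases and binding proteins with similar names were left out. A sequence was given to a gene when all its bases matched a transcript of that gene in sense and no transcript of another gene. The 5946 sequences made up 0.121% of the list. Of these, 206 were listed on a chromosome other than that of the gene, where reverse-transcribed copies of ribosomal protein genes can lie, and 5740 on the gene's own chromosome.

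The list came from 4 immunoprecipitations of MILI from testes of C57BL/6 mice at 14 dpp. In 2 of them the mice were Tdrd9-/-, lacking a Tudor domain helicase of the piRNA pathway, and in 2 they were Tdrd9+/-, with 1 functional allele. RNA of about 28 to 30 nt was eluted from a gel for sequencing. The deposited list pools the 4 libraries and holds each sequence with a single position in the mm9 genome, with no read count and no library. The genotypes were therefore not compared, the depth of each library is unknown, and an abundant sequence counts the same as a rare one.

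MILI is a PIWI protein of male germ cells that binds piRNAs, small RNAs that guide it to transposon transcripts. Before the onset of meiotic pachytene, many of its piRNAs come from transposons and from messenger RNAs, often from the 3′ UTR, and most begin with U. When a PIWI protein cuts a target across from its guide, the new piRNA tends to carry A at base 10. Cytosolic ribosomal proteins build the small (Rps) and large (Rpl) subunits of the ribosome, and their messenger RNAs are short and abundant in most cells. Their genes are also known for many processed pseudogenes, which arise when spliced messenger RNA is reverse-transcribed and inserted elsewhere in the genome. Such a copy holds in 1 unbroken run the bases that introns separate in the gene.

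For 3 of the 5 genes with the most sequences, the longest listed sequence at the 5′ end that held the most sequences is shown, as examples from coding sequence of what was listed in the genes. The 3 ends lie at chr7:106631147-106631175 on the minus strand for Rps3, chr15:76734835-76734863 on the plus strand for Rpl8 and chr9:64025545-64025573 on the plus strand for Rpl4, all in mm9. Base 1 and base 10 are in capitals.
Rps3: TgaatttctCactcgggagctggctgaag
Rpl8: TgtggacttCgcggagcgacacggctaca
Rpl4: TgatgaacaCcgaccttagcagaatcttg
All 3 begin with U, written as T in the list, and none of the 3 has A at base 10. The fullest end of Rpl7l1, also among the 5 genes, lies in its 3′ UTR, begins with U and has A at base 10. The end of Rps3 held 8 sequences of different lengths, the end of Rpl8 9 and the end of Rpl4 7.

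A second set shows sequences listed on another chromosome, because each is spliced in the gene and unbroken where it is listed. The bases after the exon junction of the gene's transcript are in capitals. The Rpl23 sequence, from a gene on chromosome 11, was listed at chr6:66825712-66825738 on the minus strand. The Rps24 sequence, from a gene on chromosome 14, was listed at chr1:55392625-55392650 on the plus strand, and the Rpl37 sequence, from a gene on chromosome 15, at chr5:115553515-115553540 on the minus strand. The Rps21 sequence, from a gene on chromosome 2, was listed at chr16:35573643-35573668 on the minus strand.
Rpl23: gatgtcgaagcgagGACGCGGTGGGTC
Rps24: tgctggcaaaaagTGAGTGGAGATTG
Rpl37: tagaagcaagatgACGAAGGGAACGT
Rps21: gacaagtgagcagGGACGGCCTCAGG
Each of these 4 sequences has 13 nt after the junction, and 13 or 14 nt before it.

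Sequences came from nearly all of the ribosomal protein genes, but unevenly. At least 1 sequence matched 84 of the 85 genes (98.8%), against 72.9% of all protein-coding genes, and Rpl36 had 0. At least 10 sequences matched 69 of the 85 ribosomal protein genes (81.2%), while 56.8% of all protein-coding genes reached 10. The lead narrowed with the threshold: 74 genes (87.1%) had 5 or more, against 62.4%, and 56 (65.9%) had 20 or more, against 50.2%. At 100 or more the order turned, with 16 of the 85 genes (18.8%) against 25.8% of all protein-coding genes. The median ribosomal protein gene had 37 sequences, against 20 over all protein-coding genes. Their longest transcripts had a median of 1094 nt, against 2882 nt for all protein-coding genes, so the counts above come from shorter RNAs. Per kb of its longest transcript, the median number of distinct 5′ ends was 17.3 in ribosomal protein genes and 6.01 in all protein-coding genes.

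Other genes of translation and ribosome assembly were also well above the median of all protein-coding genes. Among genes for mitochondrial ribosomal proteins, 76 of 78 had 10 or more sequences, with a median of 31.9 ends per kb. Elongation factor genes reached 10 in 8 of 8 cases, initiation factor genes in 30 of 32, and ribosome assembly genes in 20 of 20. The medians of these 3 lists were 21.8, 35.2 and 25.2 ends per kb. Each was above the 17.3 of the cytosolic ribosomal protein genes. The order turned in a density pooled over each list. It counted only start positions whose next 27 nt lie in no other annotated locus, called unshared here. This density was 53.4 ends per kb in cytosolic ribosomal protein genes and 39.97 in mitochondrial ribosomal protein genes. It was 41.5 in elongation factor genes, 42.1 in initiation factor genes and 43.1 in ribosome assembly genes. In a pooled density, genes with many ends weigh more than in a median. Positions and measure changed together, so the turn cannot be ascribed to sharing. At unshared positions the median cytosolic ribosomal protein gene had 27.8 ends per kb, and no such median is given for the other lists.

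A few ribosomal protein genes held much of the total. Rps3, whose protein sits at the messenger RNA entry of the small subunit, had 500 sequences at 252 distinct ends. Rpl7l1, a paralog of Rpl7, had 438. Rpl8 had 396 sequences and Rpl4 had 390, and both encode core proteins of the large subunit. The 5 fullest genes together held 2169 of the 5946 sequences (36.5%), and the 10 fullest held 2959 (49.8%). Among the others, Rpl22 had 232 sequences, Rps24 had 151, Rpl30 had 143 and Rps9 had 141. The low end was close to 0: Rpl3, at the peptidyl transferase centre, had 4 sequences, Rpl19 and Rpl24 had 3 each, and Rps23 had 2.

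**Figure D1:**
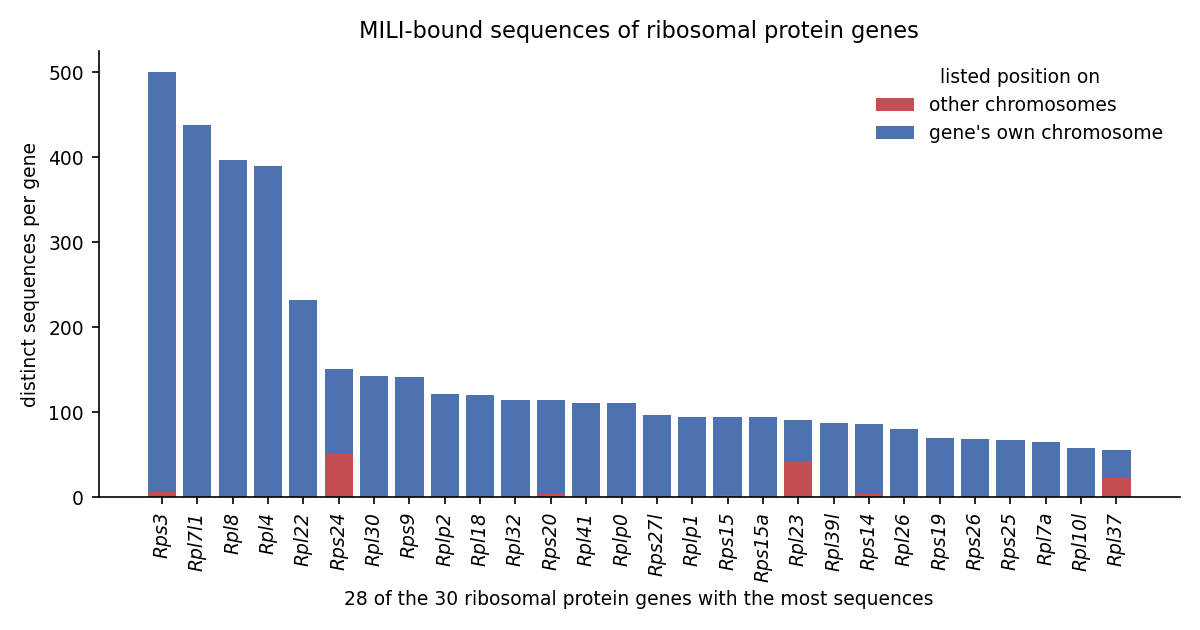
Distinct MILI-bound sequences (y axis) of 28 of the 30 ribosomal protein genes with the most sequences (x axis), pooled over the 4 libraries. Red is the number listed on other chromosomes and blue the number on the gene's own chromosome; red is a large share of the bar in Rpl23 (43 of 91), Rps24 (51 of 151) and Rpl37 (23 of 56).

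The genes of the 2 subunits were close in pooled density. The 52 large-subunit genes, 3 stalk genes included, had 3456 sequences with a median of 34.5 a gene, and the 33 small-subunit genes had 2490 with a median of 44. Measured per kb of longest transcript, the median gene had 15.8 ends in the large subunit and 20.1 in the small subunit. At unshared positions, the pooled densities were 53.7 ends per kb for the large subunit and 52.9 ends per kb for the small subunit. The 3 genes of the ribosomal stalk, which recruits translation factors, were denser, at 107.8 ends per kb of unshared positions. Rplp0, the base of the stalk, had 111 sequences, Rplp1 had 95 and Rplp2 had 121. Rpsa, which encodes a small-subunit protein also known as the laminin receptor, had 44, and Rps27a, whose product is fused to ubiquitin, had 41.

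In 5 of 8 pairs, the paralog of a ribosomal protein gene had more sequences than the gene it resembles. Rpl10l, an autosomal copy without introns that is used in male germ cells when the X chromosome is silent, had 58 sequences, while X-linked Rpl10 had 8. Rpl39l, a testis-enriched paralog, had 88 sequences, while X-linked Rpl39 had 24. Rpl36al, another copy without introns, had 32 sequences. X-linked Rpl36a had 42, of which 34 on its own chromosome matched none of its transcripts annotated as protein-coding. Rps4x, the other X-linked gene, had 5.
The same order held in 3 autosomal pairs: Rpl3l, a paralog used in striated muscle, had 18 sequences and Rpl3 had 4; Rps27l had 97 and Rps27 had 15; Rpl7l1 had 438 and Rpl7 had 37. Rpl22l1 had 37 sequences and Rpl22 had 232, and Rps27rt, a copy of Rps27 without introns, had 1. Sharing with other loci differed in the same pairs: 28.1% of the start positions of Rpl10l lay in a run that another annotated locus holds, against 83.1% for Rpl10. The same share was 0% for Rpl3l and 87.7% for Rpl3, 21.8% for Rps27l and 98.3% for Rps27, and 22.8% for Rpl7l1 and 83.6% for Rpl7. In 6 of the 8 pairs the gene with the lower share had more sequences. The exceptions were Rpl36al (21.4%) with Rpl36a (88.7%), and Rps27rt (88.5%) with Rps27. Per kb of unshared positions, the order of 2 pairs turned: Rpl7l1 had 112.2 ends and Rpl7 had 160.7, and Rpl22l1 had 89.9 and Rpl22 had 72.2. Rpl10l (48.8) stayed above Rpl10 (25.4), and Rpl39l (83.6) above Rpl39 (37.9). Rpl36a had 40 such positions, Rps27 had 4 and Rps27rt had 40, too few to rank.

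Copies elsewhere in the genome covered a large part of these transcripts. For each gene, its transcript of greatest coding length was read in windows of 27 nt, the commonest length of the listed sequences. Of the 86200 start positions, 9382 (10.9%) had a window that crossed an exon junction. Such a window is broken in the gene's own locus, unless the intron's edge repeats the bases past the junction. Of the 76818 windows inside 1 exon, 30814 (40.1%) were also held unbroken by another annotated locus, against 6.66% for mitochondrial ribosomal protein genes. An annotated pseudogene held 29162 of the 30814 (94.6%). The share was lowest in Rpl3l (0%) and Rpl39l (2.89%), and highest in Rps27 (98.3%), Rpl36 (95.7%), Rps12 (94.8%) and Rpl9 (91.9%). Rpl36, the gene with no sequence, had 12 unshared start positions left.

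Genes with more shared positions had fewer sequences. Among 27-nt windows in 1 exon, 0 of 6336 with 1 copy and 0 of 24478 with 2 or more were listed. Counts over a whole transcript therefore fall with sharing through the make-up of the list, and the values that follow are no separate finding. The 6 genes with under 10% of start positions shared had a median of 163.5 sequences, the 40 genes with 10 to 50% had 45.5, the 35 with 50 to 90% had 22, and the 4 above 90% had 21.5. Across the 85 genes, Spearman's rho between this share and the ends per kb was −0.46. Counted only at unshared positions, over the 72 genes with at least 100 of them, rho was −0.10, and the median density was 28.4 ends per kb with a range of 0 to 307.8. Both are descriptions across genes of the same pooled libraries, and the genes share annotation and depth. By this measure the genes with many copies went both ways. Rps27 and Rps12, with over 90% of positions shared, had 0 ends at their 4 and 17 unshared positions, and the median of the 4 genes above 90% was 0 ends per kb. Rplp1 had 319.1 ends per kb of unshared positions, against 236.3 for Rpl8, 233.9 for Rpl4, 224.8 for Rps15, 160.7 for Rpl7 and 153.2 for Rps3. Rplp1 had only 94 unshared positions and Rps15 129, so their densities rest on 30 and 29 ends.

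**Figure D2:**
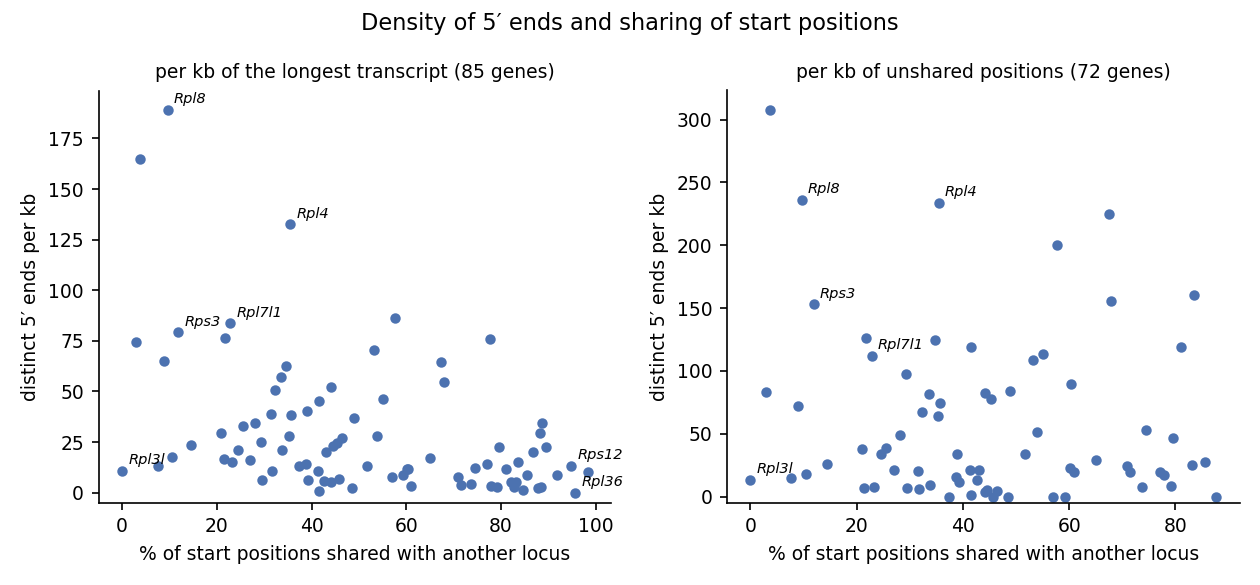
Number of distinct 5′ ends per kb (y axes) against the percent of start positions whose 27 nt another annotated locus also holds (x axes), 1 point per ribosomal protein gene. Left, 85 genes per kb of the longest transcript; right, the 72 genes with at least 100 unshared positions, per kb of those positions. The downward slope on the left (rho −0.46) is nearly absent on the right (rho −0.10).

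Sequences on other chromosomes made up 3.46% of the total (206 of 5946; 95% Clopper-Pearson interval 3.01–3.96%), against 0.0410% in other protein-coding genes (939 of 2288590). This interval and those that follow cover counting error only, since sequences that share a position are not independent. The 206 sequences belonged to 20 genes and lay at 23 positions on 13 chromosomes. Each position was narrow, 26 to 50 nt wide, and held sequences of 1 strand.
Rpl23 gave 43 sequences at chr6:66825712-66825750, Rps24 gave 41 at chr1:55392622-55392662 and Rpl37 gave 23 at chr5:115553515-115553553. Rps21 gave 16 at chr16:35573640-35573678. Rps28 had 16 in all, 9 at chr6:86284227-86284261 and 7 at chr3:126150861-126150891. Rpl37a had 8, Rps3 had 6 and Rpl36a had 5. Another 11 genes had 1 to 4 each. These sequences were 47.3% of all sequences of Rpl23, 43.2% of Rps21, 41.1% of Rpl37, 33.8% of Rps24, 33.3% of Rpl37a and 28.6% of Rps28.

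All 206 sequences on other chromosomes crossed an exon junction of the gene (100%, interval 98.2–100%), against 44 of 5740 on the gene's own chromosome (0.767%, interval 0.558–1.03%). The 100% is what a list of single genome matches would leave, although the mapping rule is not stated in the sources used here. A sequence with 1 genome match cannot also lie unbroken in an exon of the gene, so a sequence shared by gene and copy can be listed at the copy only where an intron breaks it in the gene. Among the 939 sequences of other protein-coding genes on other chromosomes, 747 (79.6%) crossed a junction. The other 192 crossed none, which that rule alone would not allow, and how they came to be listed elsewhere was not tested. In the other-chromosome sequences, the shorter side of the junction held 1 to 14 nt, with a median of 8. Of the 44 own-chromosome sequences that crossed, 37 lay in the gene's own locus and had at most 3 nt on the shorter side. The other 7 were Rps9 sequences listed at chr7:148364382-148364413 on the minus strand, far from the gene at chr7:3655740-3658389.

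**Figure D3:**
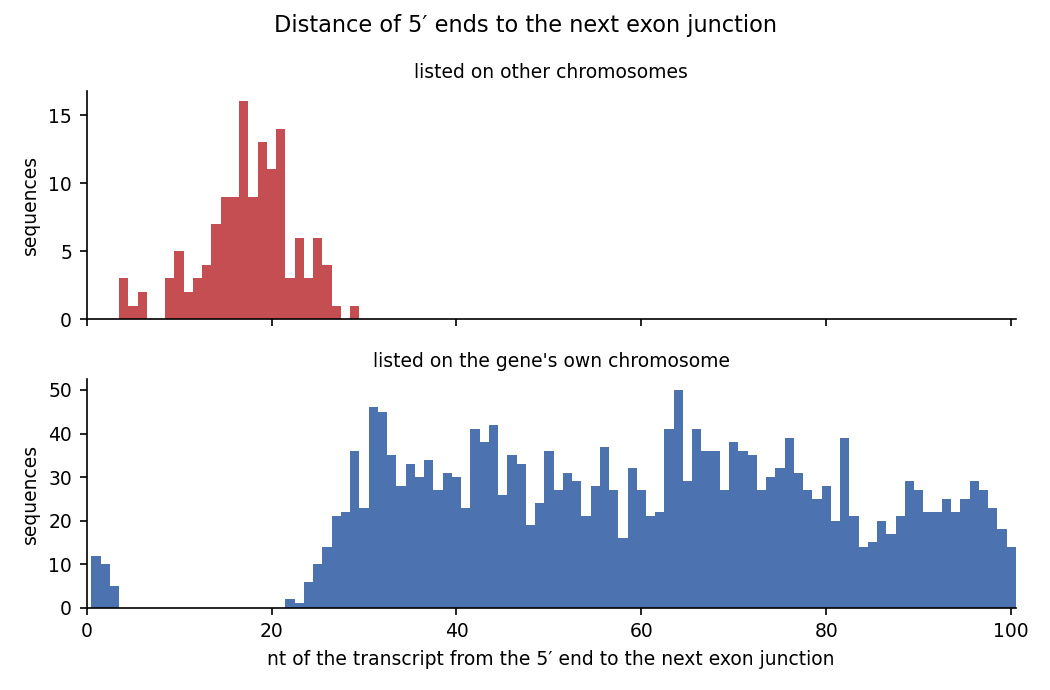
Distance from the 5′ end of a sequence to the next exon junction of the transcript (x axis, nt, drawn up to 100) for sequences listed on other chromosomes (top) and on the gene's own chromosome (bottom); the y axes count sequences on different scales. The 135 other-chromosome sequences on the transcript used lie 4 to 29 nt from the junction, where the own-chromosome panel has a gap between 3 and 22 nt.

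Junction windows were listed most often where 1 annotated copy held them. Of 1389 junction-crossing start positions with exactly 1 other annotated locus holding the 27 nt, 147 had a listed 27-nt sequence, or 105.8 per 1000 positions (interval 90.1–123.2). With no annotated copy, 44 of 2463 had one, or 17.9 per 1000, and with 2 or more copies 0 of 5530 did (interval up to 0.667 per 1000). Windows inside 1 exon were listed at 28.4 per 1000 with no copy (1307 of 46004). With 1 copy 0 of 6336 were listed, and with 2 or more 0 of 24478. A list of single genome matches can hold no exon window with a copy and no junction window with 2 or more. Under that rule these counts of 0 were fixed in advance. Apart from the 44 junction windows with no annotated copy, every listed window was held unbroken by exactly 1 annotated locus, which restates that rule.

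**Figure D4:**
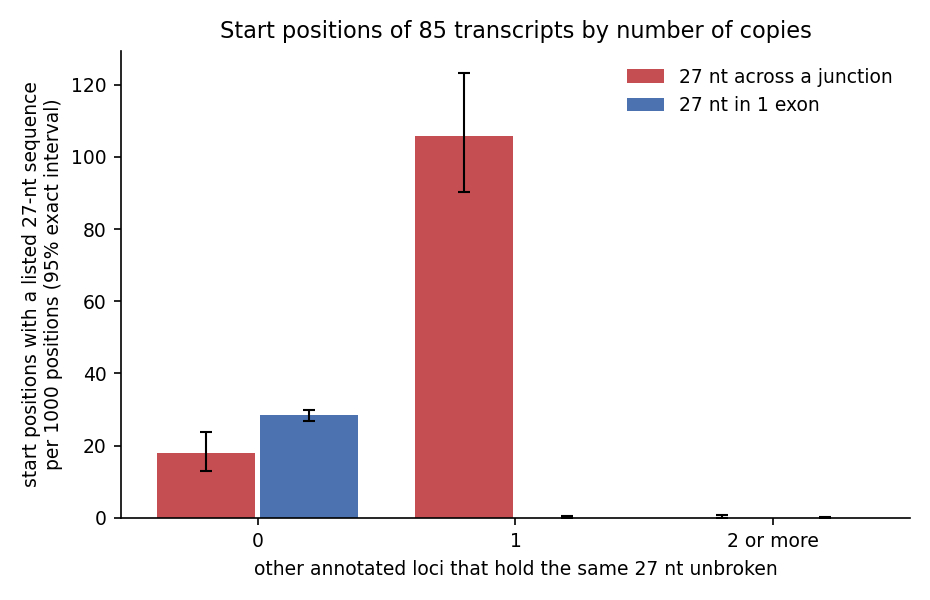
Start positions with a listed 27-nt sequence per 1000 positions (y axis, 95% exact intervals) by the number of other annotated loci that hold the same 27 nt unbroken (x axis), for windows across a junction (red) and in 1 exon (blue) of the 85 transcripts. Junction windows peak at 1 copy (105.8) and windows in 1 exon at 0 copies (28.4). The other bars are at 0, apart from 17.9 for junction windows with 0 copies. A list of single genome matches could hold no windows for the bars at 0.

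Junction windows lie mostly in coding sequence, so the matching comparison is with coding exons. Within coding sequence, 143 of 1005 junction windows with 1 copy were listed, or 142.3 per 1000 (interval 121.3–165.4). Coding windows in 1 exon with no copy were listed at 108.6 per 1000 over all the genes. The 39 genes with such junction windows include 33 with coding windows of this kind, and in these 33 the rate was 140.5 per 1000 (533 of 3793; interval 129.6–152.0). The interval for the junction windows of the 39 genes, listed at a copy, overlaps that for the exon windows of the 33 genes, listed at the gene.

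The copies themselves were rarely matched outside the stretches they share with the genes. The single copies of the junction windows included 65 annotated pseudogenes, which held 1118 junction-crossing 27-mers of ribosomal protein genes. Of these 1118, 136 were listed in sense, or 121.6 per 1000 (interval 103.1–142.3). The same pseudogenes held 14433 27-mers that occur in no ribosomal protein gene and in no other annotated gene. Of these, 108 were listed in sense, or 7.48 per 1000 (interval 6.14–9.03). The opposite strand was listed for 1 of the 1118 and 11 of the 14433. A sequence from the shared stretches cannot be told apart from one made from the spliced messenger RNA, whereas the 108 match the pseudogenes and no annotated messenger RNA.

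A further 711 sequences matched a ribosomal protein gene and also another annotated gene in sense, and are not among the 5946. Of these, 588 matched a pseudogene, and all 588 crossed a junction of the ribosomal protein gene. Another 31 matched a small nucleolar RNA, a class often encoded in introns of ribosomal protein genes. Rpl14 and its pseudogene Rpl14-ps1 shared 73 sequences, and the pseudogene had 0 sequences of its own over 79 27-mers that the ribosomal protein genes lack. Gm9794 shared 60 with Rpl23, Rpl10a-ps1 shared 45 with Rpl10a and Gm5905 shared 46 with Rps9. In all, 41 pseudogenes shared 588 sequences with ribosomal protein genes, and 17 of them held 72 sequences of their own. Gm6472, a pseudogene of Rps7, had the most sequences of its own, with 18 against 1 shared. Own sequences also outnumbered shared ones in Rps24-ps3 (4 and 3), Rpl22-ps1 (3 and 1) and Gm6867 (2 and 1). With the 581 of the 711 sequences that lay on another chromosome, 787 sequences were listed away from the gene's chromosome, and 787 of 787 crossed a junction. In a list of single genome matches, the 588 and the 787 were both bound to cross one, so these counts add no support.

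Pooled over the surroundings of the 23 copy positions, most of the listed sequences matched ribosomal protein genes, but the positions differed. Within 300 nt on either side, 144 listed sequences matched ribosomal protein genes, 58 of them beside the Rpl23 position and 24 beside the Rps21 position. Another 35 were listed there, at 9 of the 23 positions, and no rate over the rest of the genome was computed for comparison. Of these 35, 15 lay beside the Rps20 position on chromosome 16, 11 of them on the opposite strand. None of the 35 lay beside the Rpl23 position, the Rps24 position on chromosome 1 or the Rps21 position. At some positions the other sequences outnumbered those that matched, as at Rps20 on chromosome 16 (15 and 7). The same held at Rps15 on chromosome 6 (7 and 0) and Rpl37 on chromosome 5 (6 and 2).

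Within the messenger RNAs, ends pooled over the genes were denser in coding sequence than in the 3′ UTR, and in other genes pooled they were not. On the transcripts with the longest coding sequence, ribosomal protein genes had 34.2 ends per kb of coding sequence, 20.5 per kb of 3′ UTR and 29.3 per kb of 5′ UTR. The ratio of coding to 3′ UTR density was 1.67 in ribosomal protein genes and 0.754 in other protein-coding genes. These densities count shared positions, where no window was listed, and sharing fell mostly on coding sequence. Of 36409 coding windows in 1 exon, 7514 were unshared, against 46004 of 76818 in all regions. Unshared coding windows were listed at 108.6 per 1000, against 28.4 per 1000 in all regions. No ratio to the 3′ UTR was computed at unshared positions alone. Coding sequence was the denser region in 16 of the 22 ribosomal protein genes with at least 20 ends in both regions together and 30 nt in each (72.7%), against 60.4% of 9631 other genes. The interval of the first share, 49.8–89.3%, contains the second. Gene by gene, with shared positions counted, the 2 sets were thus not told apart.
Rpl8 had 184 ends in coding sequence and 0 in its 35-nt 3′ UTR. Rpl4 had 176 ends in coding sequence and 17 in 222 nt of 3′ UTR. Rps3, with a longer 3′ UTR of 1059 nt, had 159 and 71. In Rpl7l1 and Rps15a most ends lay in the 3′ UTR: Rpl7l1 had 29 ends in coding sequence and 182 in its 1841-nt 3′ UTR, and Rps15a had 1 and 67. Without Rpl7l1 and Rpl22 the ratio was 2.45, and on the shortest transcript with the same coding sequence it was 2.31.

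Fewer of the ribosomal protein sequences began with U than of other messenger RNA sequences. The first base was U in 53.6% of the ribosomal protein sequences (interval 52.4–54.9%), against 69.3% of the sequences of other protein-coding genes. Among the ribosomal protein sequences it was 36.4% on other chromosomes (75 of 206; interval 29.8–43.4%) and 54.3% on the gene's own chromosome (interval 53.0–55.5%). Few positions decided the first value, with 23.3% of the 43 Rpl23 sequences on chromosome 6, 26.8% of the 41 Rps24 sequences on chromosome 1 and 100% of the 8 Rpl37a sequences.

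The bases available in these transcripts held nearly as much U as those of other genes. At unshared positions of ribosomal protein genes, 24.5% of bases were U when each gene was weighted by its ends. The value was 25% in other protein-coding genes, where shared positions were left in for nearly all genes. Of the distinct ends at these positions, 47.1% had U in ribosomal protein genes and 62.5% in other protein-coding genes. The enrichment over the available bases was thus 1.92-fold in ribosomal protein genes and 2.50-fold in other genes. With shared positions left in for both sets, the enrichment was 1.99-fold and 2.50-fold. At unshared positions it was 2.29-fold in mitochondrial ribosomal protein genes and 2.08-fold in elongation factor genes. It was 2.20-fold in initiation factor genes and 2.19-fold in ribosome assembly genes. The cytosolic ribosomal protein genes had the lowest of these values. In all of them the available bases were taken over whole transcripts, without matching the region of the ends.

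The U enrichment varied with region and density. On the shortest transcripts, ends in coding sequence were enriched 1.77-fold in ribosomal protein genes and 2.61-fold in other genes. In the 3′ UTR the values were 2.25-fold and 2.24-fold, and in the 5′ UTR 2.55-fold and 3.01-fold. The lower value of ribosomal protein genes thus lay in coding sequence and, to a lesser extent, the 5′ UTR. Denser genes had less enrichment in both sets. At 100 or more ends per kb it was 1.79-fold in ribosomal protein genes and 2.18-fold in other genes. Under 20 ends per kb it was 2.45-fold and 2.85-fold. Shared positions were left out here for ribosomal protein genes but left in for nearly all other genes. Of the ends with 3 or more sequences, 58.5% had U in ribosomal protein genes and 83.6% in other genes.

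The genes differed widely among themselves in 5′ U. Among the 29 genes with at least 20 ends at unshared positions, the enrichment ran from 1.01-fold in Rplp2 to 3.03-fold in Rpsa, with a median of 1.94-fold. Rps27l (1.19-fold) and Rplp0 (1.20-fold) were near the low end, with Rpl8 at 1.44-fold. Rps15a, whose ends lie in the 3′ UTR, was near the high end at 2.84-fold, with Rpl10l at 2.63-fold. The available positions were taken over the whole transcript, while the ends of a gene can lie mostly in 1 region. In ribosomal protein genes, U made up 19.9% of coding positions and 30.3% of 3′ UTR positions. Rplp2 had 34 ends in coding sequence and 0 in the 3′ UTR, whereas Rpsa had 0 and 20. The range between genes therefore includes differences of region, which were not separated. The raw shares varied with base content: across these 29 genes, Spearman's rho between the percent of U at the available positions and at the ends was 0.63.

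**Figure D5:**
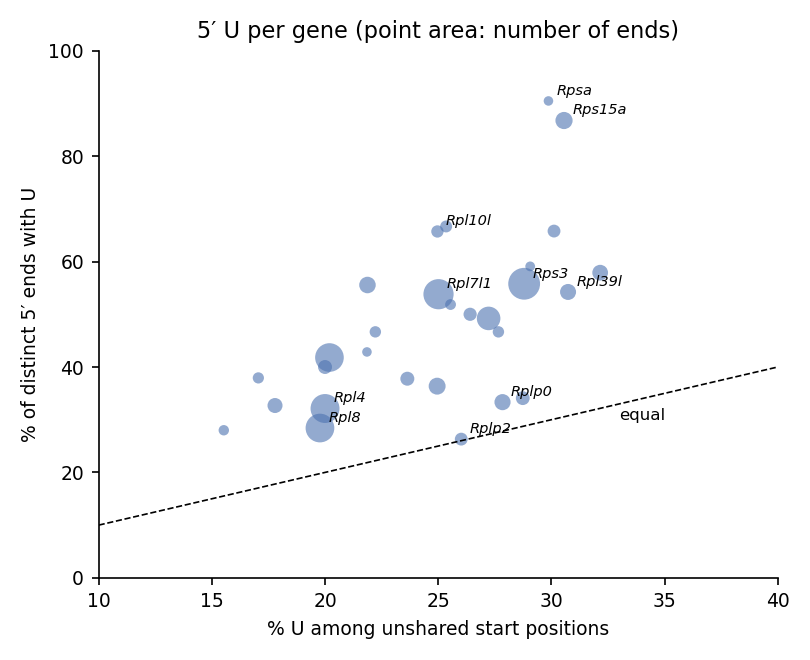
Percent of distinct 5′ ends with U (y axis) against the percent of U among the unshared start positions of the same transcript (x axis) for the 29 ribosomal protein genes with at least 20 ends; the area of a point grows with its number of ends. Every point lies on or above the dashed line of equality, from Rplp2 (26.3% against 26%) to Rpsa (90.5% against 29.9%).

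Length and the share of A at base 10 were close to those of other genes. The ribosomal protein sequences averaged 27.1 ± 1.48 nt (SD over 5946 sequences), with 27 nt the commonest length. Between 26 and 28 nt lay 71.9% of them, against 75.6% for other genes. The share was 71.4% for the sequences on other chromosomes and 71.9% for those on the gene's own chromosome. All sets went through the same size selection on a gel, so likeness in length cannot mark them as piRNAs. A at base 10 was found in 28.8% of the ribosomal protein sequences, against 27.5% A over bases 11 to 18, and in 30.6% of the sequences of other genes, against 30.1%. Base 10 was thus within 2 percentage points of its neighbours in both sets. Ends on opposite strands that overlapped by 10 nt numbered 14 pairs, against a mean of 9.95 pairs over the other overlaps (range 7 to 14), and 0.445% of the 3146 ends in the genes' own loci had such a partner.

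Most ends were represented by 1 sequence. Of the 3146 ends in the genes' own loci, 1806 (57.4%) had a single sequence and 329 had 4 or more, with a highest value of 9. The ends with 4 or more sequences began with U in 67.8% of cases, and those with 1 sequence in 47.3%. Some sequences matched none of the gene's transcripts that are annotated as protein-coding, only its transcripts of other types. There were 441 of these on the gene's own chromosome, with 35 each in Rpl27a and Rps28, 34 in Rpl36a and 30 in Rps12. Which RNA they came from was not tested.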

How the data were processed

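The deposited table has 5 columns, a sequence with its chromosome, start, end and strand; per the file headers its values are genome positions, with no read count or score. Positions refer to mm9, according to the submitters' processing notes. The aligner and read filters were not given in the sources used. The symbol rule, the lists of other translation genes and the named genes were chosen with earlier results of these data known. Named genes were those with the most sequences, those with 5 or more on other chromosomes, X-linked genes, paralogs, the stalk genes, Rpsa and Rps27a; some genes that this rule names are not reported here. Genes named for a low count, a pseudogene, sharing, region or U enrichment were chosen after their values were seen.

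Every listed sequence was matched over its whole length, with no mismatch, to 141767 GENCODE M21 transcripts (built on GRCm38, used for names, chromosomes, exons and bases only) with Python 3.11.15, numpy 2.4.6 and numba 0.67.0. The matching was tested on 500 planted sequences, of which 500 were found. A distinct 5′ end is a chromosome, strand and 5′ position. A start position is shared when its 27 nt lie unbroken, on either strand, in an annotated locus that does not overlap the gene; copies absent from the annotation are not seen. Intervals are 95% Clopper-Pearson over sequences or positions (scipy 1.17.1). No test between groups was run, since the 4 libraries are pooled. Alternatives in length, threshold, transcript, members and multiple matches were tried.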

Additional observations from a re-analysis of the deposited data

Results flagged for a closer look

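Outside the sense sequences described above, 292 listed sequences matched ribosomal protein genes only in antisense, in 45 of the 85 genes. None of the 292 lay on another chromosome, and 7 crossed an exon junction. Rpl13a had 34 of them, Rps18 22, Rps28 21 and Rpl7a 20. Sequences that match an annotated transcript of any gene in sense had been left out, so none of the 292 matches an annotated transcript of an overlapping gene in sense. Whether these sequences come from unannotated RNA of the other strand was not tested, and no control immunoprecipitation was analysed here.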

How the results depend on the processing

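Of 42 recomputed values for all the genes, 32 stayed within their range and 10 moved, with no reversal; the 20 values for single genes stayed within theirs. Counting sequences that also match another gene raised the share on other chromosomes to 11.8%. Counting distinct ends gave 3242 in place of 5946, with 2.81% on other chromosomes and 49.5% with 5′ U. Without the 5 fullest genes, 3777 sequences remained, of which 5.27% lay on other chromosomes. The ratio of coding to 3′ UTR density was 2.33 without the paralogs, 2.31 on the shortest transcripts and 2.45 without Rpl7l1 and Rpl22, the last 2 being settings chosen after seeing the data. Counted over unshared positions alone, also chosen after seeing the data, the median density was 27.8 ends per kb. No paired analysis was possible because the libraries are pooled in 1 list, which also prevented leaving out a replicate. Copies outside the annotation, and sequences with several genome matches, limit every count of the genes with many pseudogenes.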
